A study of Mus musculus with 2 samples.

Results

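The genes described here are 8 checkpoint ligands and receptors of the tumour immune response, among the 31053 genes counted in every cell: Cd274 (encoding PD-L1), Pdcd1lg2 (PD-L2), Cd86, Havcr2 (TIM-3), Lgals9 (galectin-9), Lgals1 (galectin-1), Cd47 and Sirpa. The rule that chose them lists their names and uses no measured value, and a further 59 genes of the same pathways were counted beside them. Single-cell RNA was measured with the 10x Genomics 3′ assay, which counts each captured mRNA molecule once through a unique molecular identifier (UMI), in small subcutaneous tumours of B16F10, a mouse melanoma line that keeps its own intact Atf4. The WT library came from hosts with Atf4 wt/wt and the KO library from hosts with Atf4 Δ/Δ, both C57BL/6, 11 weeks old, and each library pooled 2 tumours. Both kinds of host carried Rosa26::CreERT2, a tamoxifen-activated recombinase driven from a locus active in nearly all tissues, and both received tamoxifen. In the Δ/Δ hosts loxP sites flanked exons 2 and 3 of Atf4, the gene of a transcription factor of the integrated stress response. The deletion could therefore reach every kind of host cell and not one cell type alone.

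Checkpoint ligands are surface or secreted proteins through which tumour, stromal and myeloid cells restrain other immune cells. PD-L1 and PD-L2 bind PD-1 on T cells, CD86 binds the activating receptor CD28 and the inhibitory receptor CTLA-4, and galectin-9 is a ligand of TIM-3, which myeloid cells carry as well as T cells. CD47 is carried by most cells and binds SIRPα on phagocytes, where it gives a signal against being engulfed. Interferon-γ is a known inducer of PD-L1, and interferons also induce galectin-9.

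All 8 genes are protein coding, and their identifiers in the files matched the GENCODE vM21 annotation on build GRCm38. Cd274 (ENSMUSG00000016496, chr19:29367455-29388095, plus strand) and Pdcd1lg2 (ENSMUSG00000016498, chr19:29410919-29471161, plus strand) are neighbours. Havcr2 (ENSMUSG00000020399, chr11:46454935-46481255, plus strand) and Lgals9 (ENSMUSG00000001123, chr11:78962974-78984946, minus strand) share a chromosome, as do Cd86 (ENSMUSG00000022901, chr16:36603869-36666081, minus strand) and Cd47 (ENSMUSG00000055447, chr16:49800533-49915010, plus strand). Lgals1 (ENSMUSG00000068220) lies at chr15:78926725-78930465 on the plus strand and Sirpa (ENSMUSG00000037902) at chr2:129592835-129632228 on the plus strand.

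Interferon-regulated genes often carry the interferon-stimulated response element, whose core is GAAANNGAA, close to their start. Windows from 250 bases before to 50 bases after the start (RefSeq, GRCm38.p6) were at hand for 5 of the 8 genes, and this motif was searched on both strands. Of those 5 genes, Cd274 and Lgals9 had it, and their windows are printed here for that reason. Cd47, whose windows did not hold it, was also highest among myeloid states in the cells with interferon-response genes described further on. Whether the motif and that state go together was not tested. Each stretch of 120 bases runs 5′ to 3′ along its gene, with the motif, present on the opposite strand, in capitals.

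Cd274, chr19:29367288-29367407, plus strand: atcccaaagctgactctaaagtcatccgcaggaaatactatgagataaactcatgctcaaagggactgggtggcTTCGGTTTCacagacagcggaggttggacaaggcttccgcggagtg

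Lgals9, chr11:78984955-78985074, minus strand: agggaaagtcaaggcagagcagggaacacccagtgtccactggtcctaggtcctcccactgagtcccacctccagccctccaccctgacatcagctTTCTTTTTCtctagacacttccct

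The match lay at bases −76 to −68 of Cd274 and at bases −54 to −46 of Lgals9, whose window held a second match at +17 to +25. Of all 32817 such windows, 8.55% held the motif, so a match in 1 window is common. Neither the STAT motif TTCNNNGAA, present in 8.29% of all windows, nor TGATGNAA, a core bound by C/EBP-ATF pairs and present in 3.97%, was found in the windows of these 5 genes. A match describes the letters only.

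Of 6304 barcodes in the WT library and 5474 in the KO library, 3861 and 3557 passed the limits (from 200 to 5000 genes per cell, no more than 7.5% of UMIs mitochondrial) and are called kept cells, holding 25239673 and 25278535 UMIs. Cells were put into classes by lists of marker genes that include none of the 8 members. The WT and KO libraries held 1640 and 1557 melanoma cells, 1190 and 841 myeloid cells, 212 and 253 fibroblasts, 80 and 28 endothelial cells and 42 and 16 T or NK cells, while 685 and 844 cells passed no class. The myeloid and melanoma classes had all 15 and all 7 of their markers detected in both libraries, and Cd3e, a defining T-cell gene, was at 0 in myeloid cells. Median UMIs per cell in WT and KO were 11481 and 11121 in melanoma cells, 1830 and 1911 in myeloid cells, 3765 and 3739 in fibroblasts, 3139 and 3818.5 in endothelial cells and 866.5 and 1004 in T or NK cells. The libraries shared 10 barcodes, of which 1 was among the kept cells.

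The deleted gene was checked first. Atf4 was at 187 UMIs per 1000000 UMIs of the class (CPM) in WT and 42.1 in KO myeloid cells, at 242 and 68.6 in fibroblasts and at 194 and 8.0 in endothelial cells, and in melanoma cells, which the deletion does not touch, at 226 and 197. These tags come from the deleted last exon, and KO host cells still read part of the WT level. Free melanoma RNA, which carries intact Atf4, was estimated at 12.7% of the UMIs of KO myeloid cells and 15.5% of those of KO fibroblasts. Its part in these Atf4 counts was not tested. The melanocyte genes Dct and Pmel give smaller shares in KO myeloid cells, at 317 and 125 CPM against 4807 and 1821 in KO melanoma cells. The 12.7% may thus be too high. The libraries also differed in sex: both are labelled as pooled male and female, but the WT library had 0 UMIs of Y-linked genes in every class, against 147 in KO myeloid cells and 76 in KO fibroblasts. The female-specific Xist was at 657 and 105 CPM in WT and KO myeloid cells. Sex and genotype therefore cannot be told apart when whole libraries are compared. Values within Xist cells (an Xist UMI but none of a Y-linked gene) are given below for Havcr2, Lgals1, myeloid Sirpa and endothelial Cd47.

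With 1 library per genotype there is no replicate check, so differences were not tested and carry no p-value. A level is the summed UMIs of a class as CPM, and KO over WT is the log2 ratio of these levels with its exact 95% interval. Levels are shares of a class's UMIs, so classes of unlike depth can differ in level without differing in UMIs per cell. A share of cells has its exact Clopper-Pearson interval. Both kinds of interval cover counting error only, not the difference between tumours or hosts. UMIs at the 3′ end do not scale with transcript length, and no level is compared between genes.

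Cd274, the ligand of PD-1, was mainly a myeloid gene in these tumours. Myeloid cells held 61 UMIs in WT and 54 in KO, or 23.4 and 29.1 CPM, while melanoma cells were at 1.54 and 1.49 CPM (29 and 26 UMIs). The myeloid level was 15.2 times the melanoma level in WT (95% interval 9.61 to 24.5) and 19.6 times in KO (12.1 to 32.6). Fibroblasts had 0 UMIs in WT, with an exact 95% interval that reaches 3.88 CPM, and 2 in KO. Endothelial cells had 3 and 0 UMIs and T or NK cells 1 and 0. Because melanoma cells held 74.6% and 69.2% of all UMIs, they still contained 22.0% of the Cd274 UMIs in WT and 21.0% in KO, beside 46.2% and 43.5% in myeloid cells. UMIs spilled from myeloid cells as free RNA, estimated from myeloid genes not used in the classes, would account for 10.5% and 9.99% of the melanoma Cd274 level.

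Between genotypes Cd274 did not differ beyond counting error in any class with enough counts. KO over WT was 0.32 in myeloid cells (−0.24 to 0.87) and −0.05 in melanoma cells (−0.87 to 0.76). The shares of myeloid cells with a Cd274 UMI, 4.79% and 4.76%, were nearly the same. The melanoma interval reaches far to both sides, so a change of moderate size was not detectable at this depth.

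**Figure D1:**
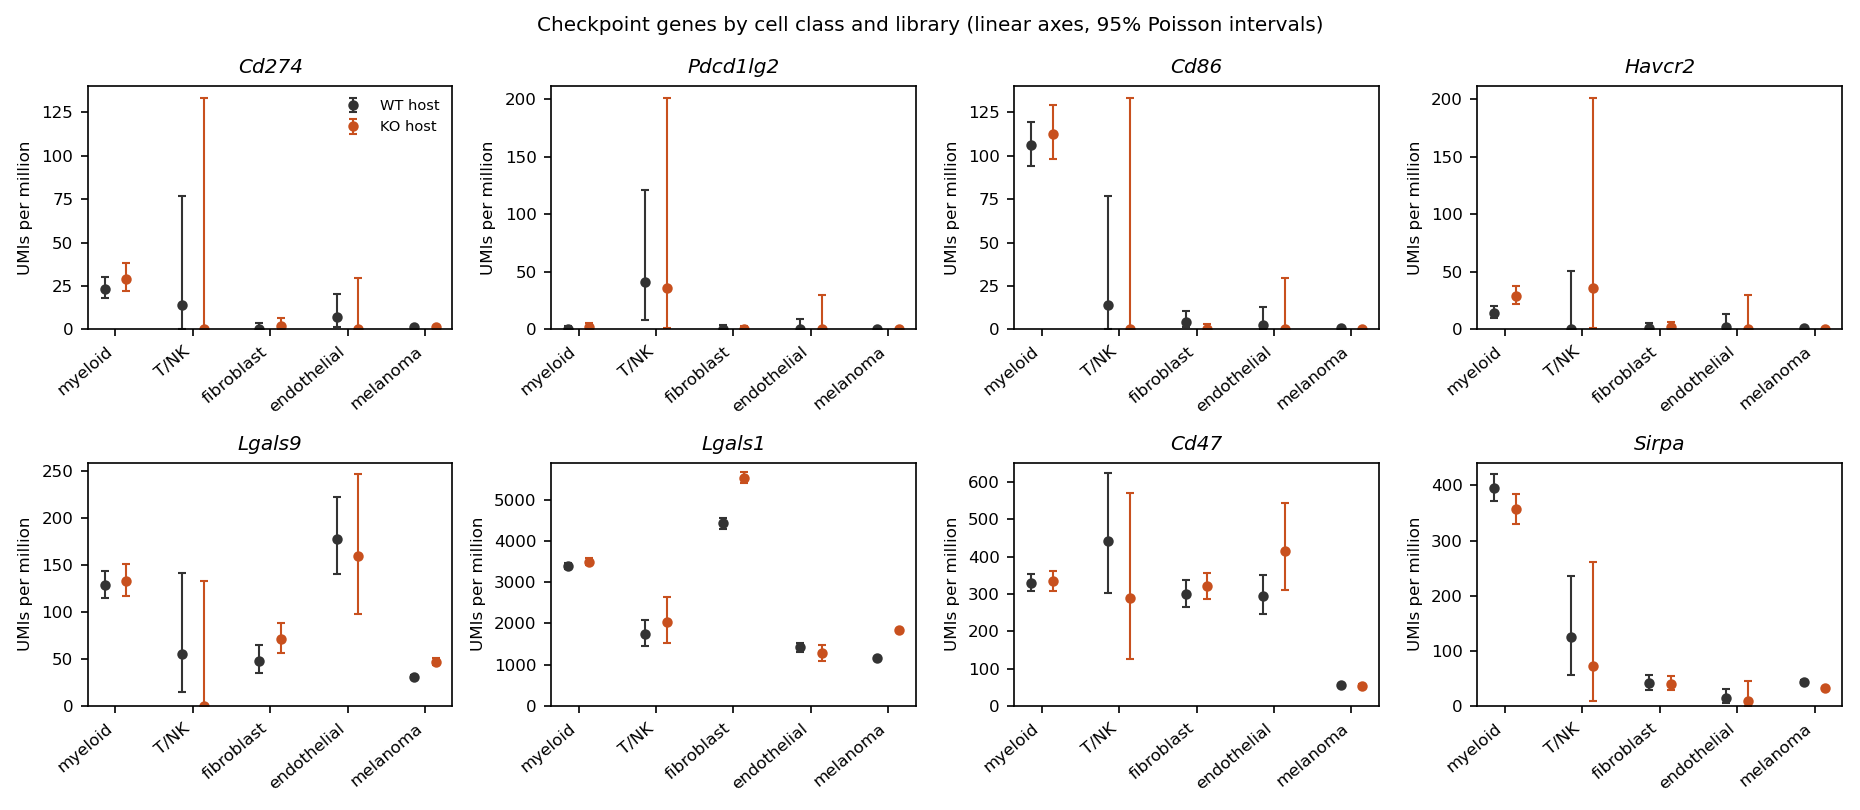
Levels of the 8 checkpoint genes (summed UMIs as CPM, linear axes that differ between panels) in each cell class, with dark points for the WT host library, orange points for the KO host library and bars for exact 95% Poisson intervals. Cd274, Cd86, Havcr2 and Sirpa stand highest in myeloid cells among classes with narrow bars, Lgals1 in fibroblasts, and Cd47 is lowest in melanoma cells, at 56.4 and 54.2 CPM.

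Within the myeloid cells, 7 states were set by gate genes and are called by them here: Lyve1/Cd163, C1q/Trem2, Ly6c2/Chil3, H2-Aa/Cd74, Arg1/Hilpda, Il1b/Cxcl2 and Ifit/Isg15 cells. They held 109 and 216, 224 and 117, 164 and 79, 229 and 132, 79 and 88, 134 and 53, and 38 and 40 cells in WT and KO. These are ranges of a per-cell score rather than sharp types, and between 1 and 31 cells of a state and library lay close to the limit of its gate. The states also share genes: Arg1/Hilpda cells held a median of 6 and 7.5 UMIs of the C1q/Trem2 list beside 8 and 9 of their own.

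Cd274 stood out in the Arg1/Hilpda cells, whose gate genes (Arg1, Slc2a1, Bnip3, Hilpda, Egln3, Ndrg1, Vegfa) mark arginine breakdown and hypoxia. They had 19 UMIs in WT and 23 in KO, or 111 and 132 CPM, the highest mean level among the 7 states and 4 other classes. Against all other myeloid cells this was 6.44 times higher in WT (log2 2.69, 1.82 to 3.50) and 7.15 times higher in KO (2.84, 1.99 to 3.66). The 79 and 88 cells held 31.1% and 42.6% of the myeloid Cd274 UMIs but 6.57% and 9.40% of all myeloid UMIs. A Cd274 UMI was seen in 16 of 79 WT cells (20.3%, 12.0 to 30.8) and 14 of 88 KO cells (15.9%, 8.98 to 25.2), at a median of 1831 and 1588 UMIs per cell. Fibroblasts, with the deeper medians given above, had it in 0% and 0.791% of cells. With every cell thinned to 1000 UMIs the shares were 12.7% and 9.64% in Arg1/Hilpda cells against 0% and 0% in fibroblasts.

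The remaining states were lower in Cd274. Ifit/Isg15 cells followed with 44.4 CPM in WT and 101 in KO, from 4 and 9 UMIs. Over other myeloid cells that was a log2 ratio of 0.97 in WT (−0.95 to 2.41), within counting error, and 1.99 in KO (0.77 to 3.04). H2-Aa/Cd74 cells had 25.4 and 45.8 CPM. Lowest were 9.01 and 7.12 CPM in C1q/Trem2 cells and 8.58 and 2.80 CPM in Lyve1/Cd163 cells, from 2 to 6 UMIs each. Ly6c2/Chil3 cells had 4 UMIs in WT and 0 in KO.

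Pdcd1lg2, the second ligand of PD-1, was close to undetected. All kept cells together held 9 UMIs in WT and 8 in KO, of which 2 and 4 were in myeloid cells (0.767 and 2.16 CPM) and 3 and 1 in T or NK cells (41.4 and 36.2 CPM). KO over WT in myeloid cells was 1.49 with an interval from −1.31 to 4.96, so neither a difference nor its absence can be read at this depth.

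Cd86, the co-stimulatory ligand of antigen-presenting cells, was mainly found in myeloid cells, which held 69.6% of its UMIs in WT and 78.0% in KO. They had 277 and 209 UMIs, or 106 and 113 CPM. Melanoma cells had 10 and 9 UMIs, or 0.531 and 0.514 CPM, and the free-RNA estimate of 0.733 and 0.574 CPM covers that level in full, so the melanoma counts read as background. Fibroblasts had 4 and 0 UMIs, endothelial cells 1 and 0, and T or NK cells 1 and 0. A UMI was seen in 19.3% and 20.9% of myeloid cells, and after thinning to 2000 UMIs in 16.0% and 14.3%, against 0.0639% and 0.0670% of thinned melanoma cells.

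KO over WT of Cd86 over all myeloid cells was 0.09 (−0.18 to 0.35). Among the states the H2-Aa/Cd74 cells, gated on antigen-presentation genes, had 136 CPM in WT and 239 in KO (59 and 47 UMIs), a ratio of 0.81 (0.23 to 1.39). Ly6c2/Chil3 cells were at 167 and 204 CPM and Il1b/Cxcl2 cells at 117 and 169. Ifit/Isg15 cells had 99.9 and 135 CPM, Arg1/Hilpda cells 99.3 and 68.8, Lyve1/Cd163 cells 88.7 and 89.6, and C1q/Trem2 cells were lowest at 79.6 and 64.1. The C1q/Trem2 cells lay 0.54 (WT) and 0.92 (KO) below the other myeloid cells on the log2 scale. The myeloid ratio moved with depth per cell: it was 0.41 (0.03 to 0.79) among cells under 2000 UMIs and −0.19 (−0.57 to 0.19) among deeper cells.

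The Arg1/Hilpda cells, highest in Cd274, were thus not the highest in Cd86. Seen cell by cell, few cells had UMIs of both genes. In WT, 13 of 57 myeloid cells with a Cd274 UMI (22.8%) also had a Cd86 UMI, against 217 of 1133 without (19.2%). In KO it was 4 of 40 (10%) against 172 of 801 (21.5%). With counts this small no direction can be read, and none was tested.

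**Figure D2:**
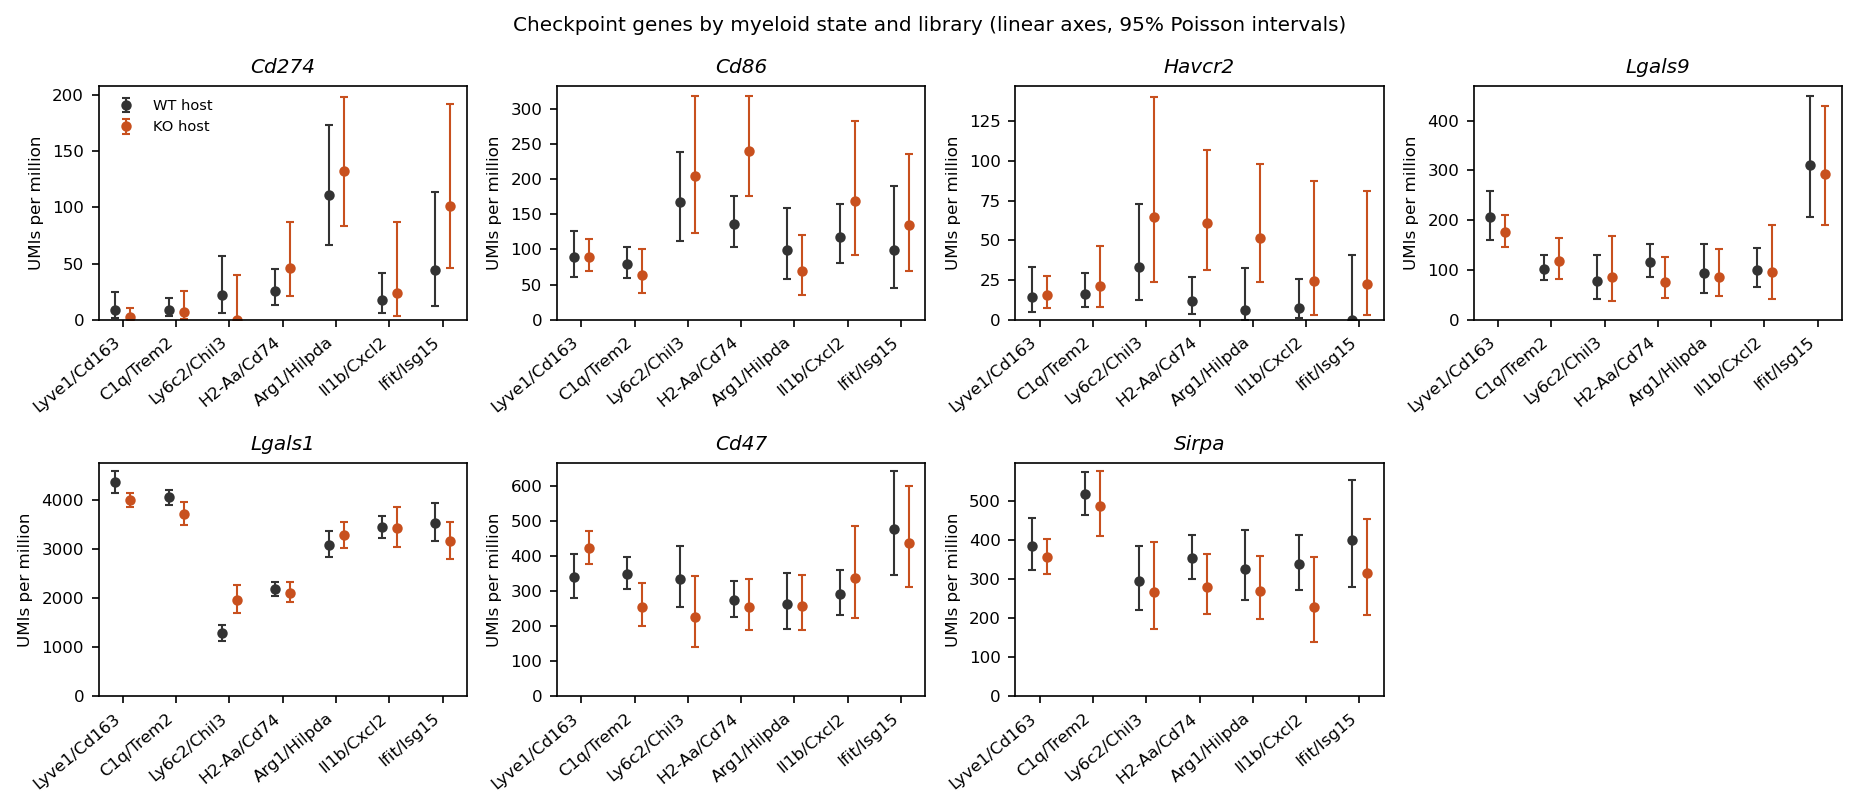
Levels of 7 members (summed UMIs as CPM, linear axes that differ between panels) in the 7 myeloid states, named by their gate genes, with dark points for WT, orange points for KO and exact 95% Poisson intervals as bars. Cd274 stands highest in Arg1/Hilpda cells (111 and 132 CPM), Lgals9 in Ifit/Isg15 cells (311 and 293 CPM) and Sirpa in C1q/Trem2 cells (518 and 488 CPM) in both libraries.

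Havcr2, which encodes the inhibitory receptor TIM-3, was likewise a myeloid gene here and was about 2-fold higher in the KO library. Its myeloid UMIs numbered 38 and 54, or 14.6 CPM in WT and 29.1 in KO. KO over WT was 1.0 (0.37 to 1.64), with UMIs in 38 of 1190 WT cells (3.19%) and 46 of 841 KO cells (5.47%). Melanoma cells had 0.797 and 0.457 CPM, of which free RNA from myeloid cells would give 12.6% and 32.5%. Fibroblasts had 1 and 2 UMIs, endothelial cells 1 and 0, and T or NK cells 0 and 1.

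The ratio was larger in shallow than in deep cells, a difference that was not itself tested. Among myeloid cells under 2000 UMIs the counts were 16 and 30 and the ratio was 1.48 (0.55 to 2.45), while among deeper cells they were 22 and 24 and the ratio was 0.58 (−0.31 to 1.49). With each cell thinned at random to 2000 UMIs, 15 and 12 UMIs were left and the ratio was 0.11 (−1.12 to 1.30). A separate random thinning gave a UMI in 2.80% and 3.52% of cells, so these values vary with the draw. Cells with a Havcr2 UMI had a median of 2551.5 UMIs in WT and 1471 in KO, against 1816.5 and 1930 in cells without one. Within the Xist cells (781 in WT and 88 in KO) 26 and 3 UMIs gave a ratio of −0.11 (−2.48 to 1.60). Set against the same WT cells, the 125 KO cells with a Y-linked UMI had 9 Havcr2 UMIs, a ratio of 1.01 (−0.27 to 2.14). The part of depth and of host sex in the difference was not tested further.

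By state, Ly6c2/Chil3 cells, whose gate genes mark circulating-type monocytes, were highest in Havcr2 at 33.4 CPM in WT and 64.4 in KO, from 6 UMIs each. That was 1.34 (−0.21 to 2.62) and 1.24 (−0.28 to 2.47) over the other myeloid cells, within counting error in each library. The KO library was higher in H2-Aa/Cd74 cells (5 and 12 UMIs, 11.6 and 61.1 CPM, log2 2.40, 0.79 to 4.26) and in Arg1/Hilpda cells (1 and 9 UMIs, 5.84 and 51.6 CPM, log2 3.14, 0.29 to 8.60). C1q/Trem2 cells had 11 and 6 UMIs, Lyve1/Cd163 cells 5 and 11, Il1b/Cxcl2 cells 2 and 2, and Ifit/Isg15 cells 0 and 2. That these state ratios differ from one another was not tested.

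Lgals9, whose product is the galectin ligand of TIM-3, was spread over more cell types. Endothelial cells were highest among the classes, with 178 CPM in WT and 159.9 in KO (76 and 20 UMIs), followed by myeloid cells with 129 and 133 CPM (336 and 247 UMIs). The endothelial intervals, 140 to 223 and 97.7 to 247 CPM, overlapped the myeloid ones, 115 to 143 and 117 to 151. Fibroblasts had 48.3 and 71.3 CPM (46 and 79 UMIs) and melanoma cells 30.6 and 47.2 CPM (576 and 826 UMIs). T or NK cells had 4 and 0 UMIs. In CPM, the myeloid level was 4.21 times the melanoma level in WT and 2.82 times in KO, and the endothelial level 5.82 and 3.39 times. Counted per cell without thinning, the myeloid order turned round. An Lgals9 UMI was seen in 27.6% and 36.6% of the deeper melanoma cells against 22.5% and 22.5% of myeloid cells. Endothelial cells, also deeper than myeloid cells, had it in 47.5% and 39.3%. Thinned to 2000 UMIs, the shares were 23.0% and 19.0% of endothelial, 22.8% and 25.6% of myeloid and 5.62% and 8.31% of melanoma cells. The endothelial cells were thus not ahead of the myeloid cells in both libraries at equal depth.

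Lgals9 was even between genotypes in myeloid cells (0.05, −0.19 to 0.29) and endothelial cells (−0.16, −0.94 to 0.57). It was higher in KO in fibroblasts (0.56, 0.02 to 1.12) and in melanoma cells (0.63, 0.47 to 0.78). Among melanoma cells the ratio was 0.59, 0.64 and 0.92 in cells of 5000 to 10000, 10000 to 20000 and 20000 to 50000 UMIs. In cells of 2000 to 5000 UMIs it was −0.47 from 14 and 8 UMIs, with an interval (−1.93 to 0.88) that holds the value over all melanoma cells. In fibroblasts thinned to 2000 UMIs it was −0.31 from 26 and 24 UMIs (−1.17 to 0.55). Melanoma cells held 50.9% of all Lgals9 UMIs in WT and 61.8% in KO.

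Ifit/Isg15 cells were the highest myeloid state for Lgals9, at 311 CPM in WT and 293 in KO (28 and 26 UMIs). Over the other myeloid cells that was a log2 ratio of 1.34 (0.73 to 1.91) in WT and 1.22 (0.58 to 1.81) in KO. An Lgals9 UMI was seen in 42.1% and 45.0% of these cells at medians of 2176.5 and 1998 UMIs, and in 34.3% and 25% after thinning to 1000 UMIs, against 12.1% and 12.4% of all thinned myeloid cells and 3.86% and 4.51% of thinned melanoma cells. Lyve1/Cd163 cells came next with 206 and 176 CPM, 0.82 and 0.73 above the other myeloid cells. C1q/Trem2 cells had 102 and 118 CPM, H2-Aa/Cd74 cells 116 and 76.4, and Ly6c2/Chil3 cells 77.9 and 85.8. Ifit/Isg15 cells and then Lyve1/Cd163 cells were thus the highest in both libraries, and the order of the lower states differed between them.

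Lgals1 encodes galectin-1, a secreted lectin that can kill or quiet activated T cells. It was detected in 91.1% of all kept cells in WT and 93.9% in KO, with 39218 and 53735 UMIs. Fibroblasts had 4431 CPM in WT and 5532 in KO (4216 and 6132 UMIs), myeloid cells 3395 and 3499 (8856 and 6490 UMIs), endothelial cells 1417 and 1271 (605 and 159 UMIs) and melanoma cells 1169 and 1852 (22010 and 32417 UMIs). T or NK cells read 1754 and 2025 CPM from 127 and 56 UMIs, of which estimated free RNA would give 32.9% and 37.5% from melanoma cells and 12.4% and 29.1% from myeloid cells. Of the endothelial level, free fibroblast RNA would give 30.6% and 47.6%, if it made up the estimated 9.78% and 10.9% of endothelial UMIs. Named fibroblast genes read lower than that estimate. Dcn was at 77.3 and 0 CPM in endothelial cells against 1980 and 2468 in fibroblasts, and Col1a1 at 715 and 240 against 10254 and 7068. The estimate may thus be too high, which was not tested. Although lower in CPM, melanoma cells held 56.1% and 60.3% of all Lgals1 UMIs.

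In the melanoma cells, which carry the same intact Atf4 in both hosts, Lgals1 was higher in KO by 0.66 on the log2 scale (0.64 to 0.69), and it was so in each of 4 ranges of depth. The per-cell median was 10.8 UMIs per 10000 in WT and 16.8 in KO, with the middle 80% of cells from 5.59 to 19.2 and from 8.28 to 30.9, so the cells of the libraries overlapped widely. By range of depth the ratio was 0.52 in cells of 2000 to 5000 UMIs, then 0.68, 0.64 and 0.85 in the deeper ranges. Each library is 1 pool of 2 tumours, and the spread between tumours of one genotype was not measured.

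In fibroblasts Lgals1 was higher in KO by 0.32 (0.26 to 0.38), with per-cell medians of 41.9 and 52.9 UMIs per 10000. The difference was smaller, 0.13 (0.04 to 0.23), within the Xist cells (170 and 66), and larger, 0.44 (0.36 to 0.52), when the 52 KO fibroblasts with a Y-linked UMI were set against the WT Xist cells. Myeloid cells were level at 0.04 (−0.0028 to 0.09), with per-cell medians of 25.7 and 29.0. There the same division by sex gave opposite signs: KO cells with Xist were at 4794 CPM against 3605 in WT cells with Xist (0.41, 0.32 to 0.50), while KO cells with a Y-linked UMI were at 3155 CPM (−0.19, −0.29 to −0.10). In endothelial cells the ratio was −0.63 (−1.21 to −0.10) within 63 WT and 10 KO Xist cells and 0.16 (−0.20 to 0.50) for 8 KO cells with a Y-linked UMI.

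**Figure D3:**
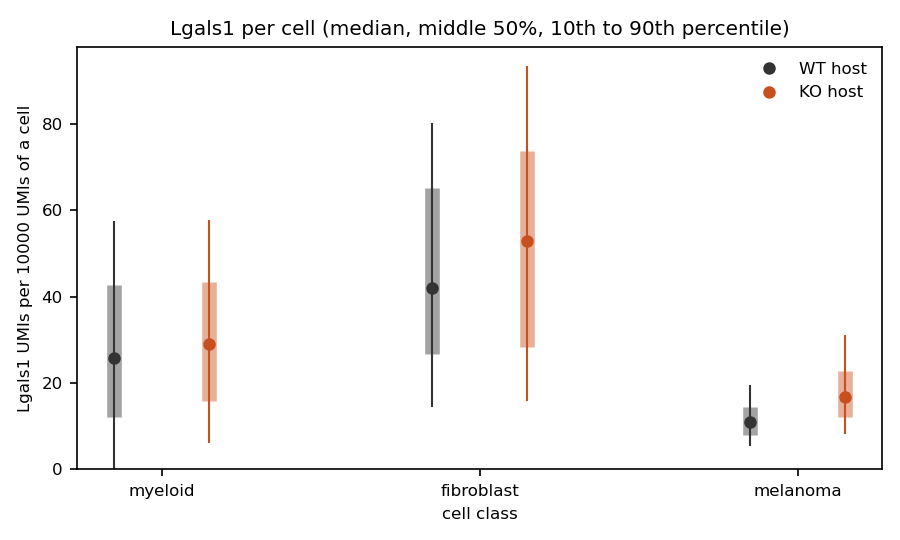
Lgals1 UMIs per 10000 UMIs of each cell in melanoma cells, myeloid cells and fibroblasts, with the median as a point, the middle 50% of cells as a thick bar and the 10th to 90th percentiles as a thin line, dark for WT and orange for KO. The KO medians stand higher in melanoma cells (16.8 against 10.8) and fibroblasts (52.9 against 41.9), with wide overlap between the libraries.

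Across myeloid states Lgals1 was highest in Lyve1/Cd163 cells (4377 CPM in WT and 4003 in KO) and C1q/Trem2 cells (4064 and 3729) and lowest in Ly6c2/Chil3 cells (1285 and 1974) and H2-Aa/Cd74 cells (2195 and 2118). The Ly6c2/Chil3 cells lay 1.47 and 0.86 below the other myeloid cells on the log2 scale. Arg1/Hilpda, Il1b/Cxcl2 and Ifit/Isg15 cells were in between, from 3095 to 3540 CPM. The genotype ratio was 0.62 (0.33 to 0.90) in Ly6c2/Chil3 cells but −0.13 (−0.22 to −0.04) in Lyve1/Cd163 cells and −0.12 (−0.23 to −0.02) in C1q/Trem2 cells.

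Cd47, the signal against engulfment, was found in every class and, as a share of a class's UMIs, was lowest in the tumour cells. The level in myeloid cells was 330 CPM in WT and 334 in KO (862 and 620 UMIs), fibroblasts 299.5 and 320.3 (285 and 355 UMIs), endothelial cells 295 and 416 (126 and 52 UMIs) and T or NK cells 442 and 289 (32 and 8 UMIs). Melanoma cells had 56.4 and 54.2 CPM (1063 and 949 UMIs). The myeloid level was 5.85 times the melanoma level in WT (5.35 to 6.41) and 6.17 times in KO, and the fibroblast level 5.31 and 5.91 times. Without thinning, a Cd47 UMI was found in 44.3% and 42.4% of the deep melanoma cells. That was close to the 47.0% and 45.9% of the shallower myeloid cells and below the 66.0% and 65.6% of fibroblasts. After thinning to 2000 UMIs the melanoma shares were 11.5% and 10.3%. Thinned myeloid cells had 47.9% and 51.0%, fibroblasts 46.2% and 48.1% and endothelial cells 50.8% and 47.6%.

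KO over WT of Cd47 was within counting error of 0 in myeloid cells (0.02, −0.13 to 0.17), fibroblasts (0.10, −0.13 to 0.33) or melanoma cells (−0.06, −0.19 to 0.07). The endothelial ratio was 0.49 with a lower bound just under 0 (−0.0010 to 0.97), from 28 KO cells. It was 0.55 (−0.40 to 1.38) within Xist cells and 0.90 (0.22 to 1.54) for the 8 KO cells with a Y-linked UMI. By state Cd47 ran from 263 to 477 CPM in WT and from 225 to 439 in KO, with Ifit/Isg15 cells highest at 477 and 439. KO over WT was 0.31 (0.0026 to 0.63) in Lyve1/Cd163 cells and −0.45 (−0.85 to −0.06) in C1q/Trem2 cells, beside 0.02 over all myeloid cells.

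Sirpa, the receptor for CD47 on phagocytes, had its highest level among the classes in myeloid cells, with 396 CPM in WT and 356 in KO (1032 and 661 UMIs). That was 9.65 and 8.78 times the fibroblast level of 41.0 and 40.6 CPM (39 and 45 UMIs) and 9.18 and 11.2 times the melanoma level of 43.1 and 31.8 CPM (812 and 556 UMIs). Myeloid cells held 48.6% and 43.8% of all Sirpa UMIs, beside 38.2% and 36.9% in melanoma cells. Endothelial cells had 6 and 1 UMIs. T or NK cells had 9 and 2 UMIs, of which 20.3% and 82.9% would be spilled myeloid RNA. The melanoma signal was far above spill from myeloid cells, which would give 6.34% and 5.72% of it.

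Sirpa was highest in C1q/Trem2 cells in both libraries, at 518 and 488 CPM (345 and 137 UMIs), 0.55 above the other myeloid cells in WT (0.36 to 0.74) and 0.55 in KO (0.27 to 0.83). Lyve1/Cd163 cells had 386 and 356 CPM, Ly6c2/Chil3 cells 295 and 268, and Il1b/Cxcl2 cells 338 and 229. Between genotypes the myeloid ratio was −0.15 (−0.29 to −0.0084) and the melanoma ratio −0.44 (−0.60 to −0.28). The myeloid ratio was −0.21 (−0.50 to 0.07) in cells under 2000 UMIs and −0.14 (−0.30 to 0.03) in deeper cells. Within Xist cells the myeloid ratio was −0.05 (−0.37 to 0.26). For KO cells with a Y-linked UMI against WT Xist cells it was −0.05 (−0.32 to 0.22). In melanoma cells it was −0.35, −0.48 and −0.74 in the ranges above 5000 UMIs. In cells of 2000 to 5000 UMIs it was 0.72 from 10 and 13 UMIs, an interval (−0.59 to 2.06) that holds the value over all melanoma cells. In CPM, myeloid cells were thus above melanoma cells in both the receptor and its ligand, in both libraries.

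**Figure D4:**
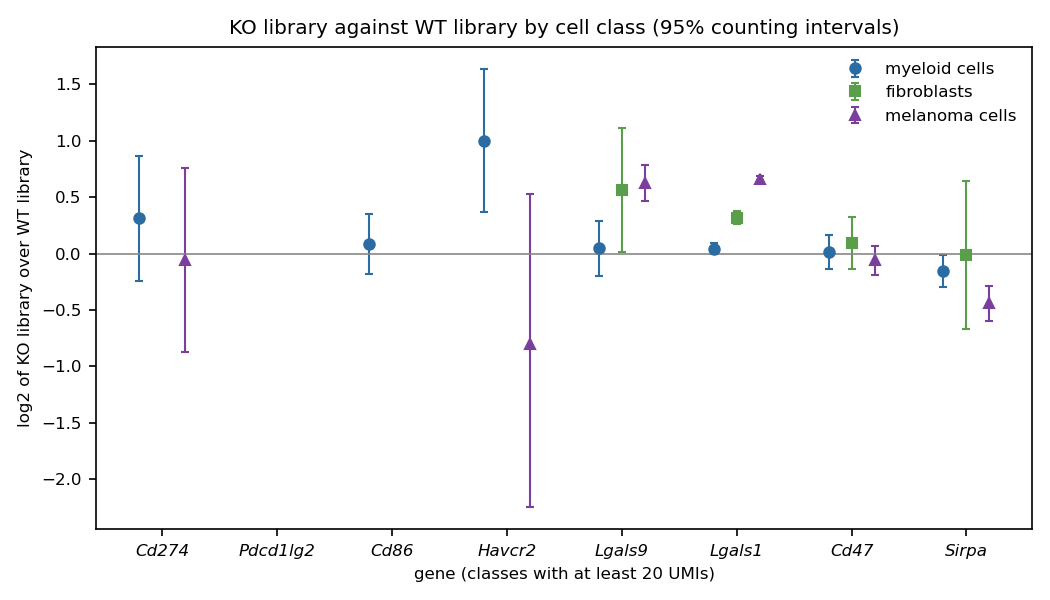
Log2 ratio of KO over WT for the members with at least 20 UMIs over both libraries in myeloid cells, fibroblasts and melanoma cells, with exact 95% intervals as bars and a line at 0. Intervals clear of 0 belong to Havcr2 (1.0) and Sirpa (−0.15) in myeloid cells, Lgals1 (0.32) and Lgals9 (0.56) in fibroblasts, and Lgals1 (0.66), Lgals9 (0.63) and Sirpa (−0.44) in melanoma cells.

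No member reached a 2-fold difference between the genotypes in these classes, where a gene counted as past 2-fold if it had at least 20 UMIs over both libraries. In myeloid cells 0 of 7 members were past 2-fold in either direction, Havcr2 falling just short, beside 2.73% of 9112 genes higher and 2.52% lower in KO. In fibroblasts 0 of 4 members were past it, beside 4.24% of 8157 genes higher and 5.55% lower, and in melanoma cells 0 of 6, beside 3.0% of 12114 genes higher and 1.20% lower. A count of 0 among 4 to 7 members is close to these background shares and says little about the members. The median log2 ratio of the members was 0.05 in myeloid cells, 0.21 in fibroblasts and −0.06 in melanoma cells, against −0.01, −0.05 and 0.02 over all genes counted.

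By state, members were also counted if at least 2-fold higher than in the other myeloid cells in both libraries. This was 1 of 7 members in each of 3 states: Havcr2 in Ly6c2/Chil3 cells, beside 3.02% of 7029 genes, Cd274 in Arg1/Hilpda cells, beside 2.12%, and Lgals9 in Ifit/Isg15 cells, beside 5.09%. Havcr2 there had 6 UMIs in each library, and both its intervals include 0. In the other 4 states it was 0 of 7, beside 2.49% of genes in Lyve1/Cd163, 0.398% in C1q/Trem2, 0.754% in H2-Aa/Cd74 and 1.37% in Il1b/Cxcl2 cells. Counts of 0 or 1 among 7 members say little about the members. These states were gated on other genes of the same cells, so the shares describe them and test nothing.

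**Figure D5:**
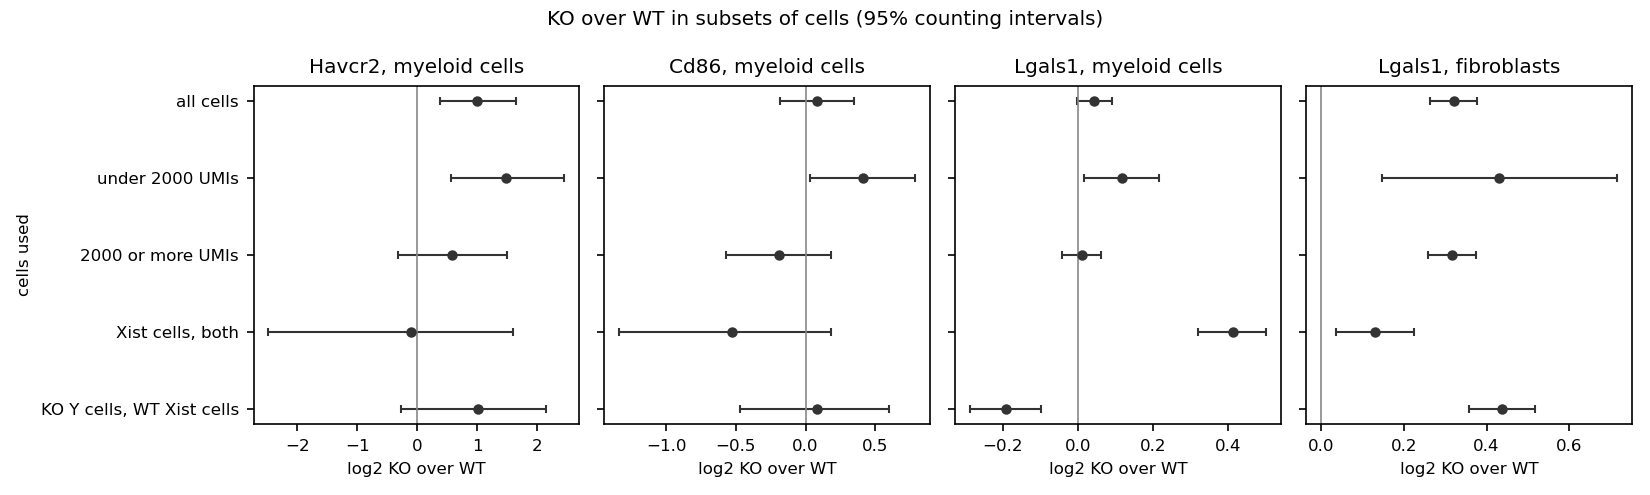
Log2 ratio of KO over WT (horizontal axes differ between panels) of Havcr2, Cd86 and Lgals1 in myeloid cells and of Lgals1 in fibroblasts, over all cells, cells under 2000 UMIs, cells of 2000 or more UMIs, cells with Xist in both libraries, and KO cells with a Y-linked UMI against WT cells with Xist, with exact 95% intervals. The Havcr2 ratio is 1.48 in shallow and 0.58 in deeper cells, and the myeloid Lgals1 ratio is 0.41 in Xist cells and −0.19 in KO cells with a Y-linked UMI.

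Ordered by mean level over the libraries, the 11 groups of cells (7 myeloid states and 4 other classes) rarely separated from their neighbours. Of 80 neighbouring pairs in the orders of the members, 4 had intervals apart within each library, namely Lgals1 in Arg1/Hilpda cells above H2-Aa/Cd74 cells, Cd47 in Arg1/Hilpda cells above melanoma cells, Sirpa in C1q/Trem2 cells above Lyve1/Cd163 cells and Lgals9 in fibroblasts above melanoma cells. The ends of the orders were Arg1/Hilpda cells over fibroblasts for Cd274, H2-Aa/Cd74 cells over melanoma cells for Cd86, Ly6c2/Chil3 cells over melanoma cells for Havcr2 and Ifit/Isg15 cells over T or NK cells for Lgals9. They were fibroblasts over endothelial cells for Lgals1, Ifit/Isg15 cells over melanoma cells for Cd47 and C1q/Trem2 cells over endothelial cells for Sirpa.

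The partners of these proteins on T cells were hardly measured. The 42 WT and 16 KO T or NK cells had 1 and 2 UMIs of Pdcd1, which encodes PD-1, 1 and 2 of Ctla4 and 4 and 6 of Cd28, and 0 and 0 of Ifng, the gene of interferon-γ. Pdcd1 and Ctla4 were at 0 UMIs in the myeloid, fibroblast, endothelial and melanoma classes of both libraries. Genes of other cells were high in these shallow T or NK cells: the melanocyte enzyme gene Dct was at 2500 and 1374 CPM, and 49.3% and 41.0% of their UMIs were estimated to be free melanoma RNA. Their part in the T or NK values above was not tested.

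Cd80, the other ligand of CD28 and CTLA-4, had 42 UMIs in WT and 25 in KO myeloid cells (16.1 and 13.5 CPM, log2 −0.26). Thbs1, whose product thrombospondin-1 also binds CD47, was at 444 and 564 CPM in myeloid cells (1157 and 1046 UMIs, 0.35, 0.22 to 0.47) and at 557 and 623 in fibroblasts. Among the states Thbs1 was highest in Ly6c2/Chil3 cells, with 1296 and 2210 CPM, and lowest in Lyve1/Cd163 cells, with 31.5 and 46.2. H2-Aa/Cd74 cells had 414 and 1120 CPM and Il1b/Cxcl2 cells 743 and 1651. In endothelial cells it was at 101 and 448 CPM (43 and 56 UMIs, 2.15, 1.55 to 2.76). These UMIs came from 23 of 80 and 14 of 28 cells, so few cells carried the value.

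Of the 59 other checkpoint genes, 31 had at least 20 UMIs in myeloid cells, with a median of −0.13. Of these, 1 was past 2-fold higher in KO and 0 lower, beside 2.73% and 2.52% of all genes counted there. The gene was Timd4, which encodes the phagocytic receptor TIM-4, with 9 and 14 UMIs and an interval that includes 0 (1.13, −0.18 to 2.52). Irf1, the gene of a transcription factor through which interferon-γ acts on Cd274, had 113 and 63 UMIs in myeloid cells and was not past 2-fold. In melanoma cells 31 of the genes were counted, and 1 was past 2-fold, the adenosine receptor gene Adora2b with 9 and 20 UMIs (1.26, 0.06 to 2.58), with a median of −0.01.

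In fibroblasts 19 of the genes were counted, with 1 past 2-fold higher, 3 lower and a median of −0.04. Over all genes counted there, 4.24% were higher in KO and 5.55% lower. Counts of 1 and 3 among 19 genes say little about the genes. Lgals3, the gene of galectin-3, was higher at 213 CPM in WT and 622 in KO (203 and 689 UMIs, 1.54, 1.31 to 1.78). Those lower in KO included Irf1 with 32 and 9 UMIs (−2.05, −3.30 to −0.95) and Tnfsf9, the gene of the co-stimulatory ligand 4-1BBL, with 17 and 6 (−1.72, −3.35 to −0.31). Endothelial cells had Lgals3 the other way round, at 595 and 208 CPM (254 and 26 UMIs, −1.52, −2.16 to −0.93), from 17 of 80 and 7 of 28 cells, so that few cells carried the value.

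The genes most like each member were found over 22 groups of cells (classes and states in each library with at least 30 cells) by Pearson's correlation of log2 levels among 10007 genes. The groups share libraries and depth, so these values describe and are not tested. Closest to Cd86 were Clec4a2 (0.98), Pid1 (0.97) and Tgfbi (0.97), and to Sirpa Rgs10, Fermt3 and Lrrc25 (0.96 each). Cd47 ran with Tagln2 (0.91), Man1a (0.90) and H2-K1 (0.90), and Cd274 with Il7r (0.88), Fam46c (0.86) and Pcgf5 (0.83). Lgals1 was most like Rnase4 (0.87), Mfhas1 (0.85) and Pdlim4 (0.84), and Havcr2 most like Baz2b (0.85), Picalm (0.82) and Arrdc4 (0.82). For Lgals9 the list was Rtp4, Apobec3 and Bst2 (0.84 each). Pdcd1lg2, with 17 UMIs in all, gave Pmm2 (0.75), Rsbn1l (0.74) and Sap18b (0.71), values that rest on almost no counts.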

How the data were processed

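The authors deposited raw UMI counts of genes by barcodes, made with Cell Ranger 3.1.0 on GRCm38 according to the submitters' processing notes, which also name Seurat 3.2.1. The labels and the methods of the study name different versions of the 10x 3′ kit. Barcodes outside 200 to 5000 genes or above 7.5% mitochondrial UMIs were dropped. A cell took the lineage with the highest marker score if at least 3 markers were detected and it led by 0.25, and a myeloid state if it led by 0.1. Scrublet called 143 doublets (1.93%), which were kept except in an alternative. Members, lists and gates were chosen with earlier results of these data known. Named were all 8 members, their partners Pdcd1, Cd28, Ctla4, Thbs1 and Cd80, other listed genes with at least 20 UMIs and past 2-fold, and the 3 most similar genes per member (at least 200 UMIs, log2(CPM + 10), genes of the gates left out). Interferon genes and endothelial values of Lgals3 and Thbs1 were named after their values were seen. The values of 1 listed gene that this rule names are not reported here. A count of 0 was set to 3 in ratios. Alternatives were other limits, doublets removed, other scalings, thinning, free-RNA subtraction, clusters and subsets by sex and depth. Scripts used Python 3.11.15, numpy 2.4.6, pandas 2.3.3, scipy 1.17.1, scanpy 1.11.5 and matplotlib 3.10.9, and were tested on simulated counts.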

Additional observations from a re-analysis of the deposited data

Results flagged for a closer look

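Lgals1 moved in opposite directions between the hosts in different myeloid states. KO over WT was −0.13 in Lyve1/Cd163 cells and −0.12 in C1q/Trem2 cells but 0.62 in Ly6c2/Chil3 cells. Each interval of counting error leaves out 0, and the difference between the states was not tested. Cd47 did so too, at 0.31 in Lyve1/Cd163 cells and −0.45 in C1q/Trem2 cells, which was likewise not tested. Against the same WT myeloid cells with Xist, Lgals1 was 0.41 higher in KO cells with Xist and, at −0.19, lower in KO cells with a Y-linked UMI, and this difference was not tested. These cells come from different hosts pooled in 1 library, so sex and animal cannot be told apart.

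Barcodes with over 5000 detected genes, 21 in WT and 19 in KO, were left out of all classes. There Cd47 was at 37.9 CPM in WT and 83.2 in KO (22 and 41 UMIs), a log2 ratio of 1.13 (0.35 to 1.95). In the kept melanoma cells it was −0.06 over all and 0.56 (0.03 to 1.11) in those of 20000 to 50000 UMIs.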

How the results depend on the processing

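Of 200 alternatives over the 36 main values, 163 stayed within the interval or 1.5 times the count, 36 moved out of it and 1, whose interval had left out 0, turned its sign. Over 4 further values 49 of 56 stayed, 3 moved and 4 turned so. Values whose interval includes 0 also turned sign, among them some of those that follow. Havcr2 was −0.11 in myeloid cells with Xist, and thinned to 2000 UMIs it was 0.11. In myeloid Xist cells Cd274 was −0.70, Cd86 −0.53 and Lgals1 0.41 (KO cells with a Y-linked UMI −0.19). Under 2000 UMIs the myeloid ratios were 0.41 for Cd86 (−0.19 in deeper cells), −0.36 for Lgals9, −0.32 for Cd47 and 0.12 for Lgals1. Thinning gave −0.23 for Cd86 and −0.0146 for Lgals1, the mean over cells −0.14 for Cd47 and 0.0912 for Lgals1, and equal weights of states −0.0126 for Lgals1. Lgals1 in fibroblasts was 0.21 without doublets, 0.21 as mean over cells, 0.23 thinned, 0.23 after subtracting free RNA (22.7% and 16.6% of UMIs), 0.13 in Xist cells, 0.44 in KO Y cells and 0.43 under 2000 UMIs. In melanoma cells Lgals1 was 0.62 thinned, 0.52 at 2000 to 5000 UMIs and 0.85 at 20000 to 50000, and Cd47 0.13 with classes from clusters and 0.56 at 20000 to 50000. With at least 50 UMIs per gene, 114 genes were past 2-fold higher and 84 lower in myeloid cells, 143 and 184 in fibroblasts and 203 and 62 in melanoma cells. Lgals9 in Lyve1/Cd163 cells over the rest was 0.32 in WT when thinned to 1000 UMIs, and Lgals1 there 0.33 in WT with a wider margin and 0.50 in KO when thinned. Signs turned for Lgals9 in fibroblasts thinned (−0.31, 26 and 24 UMIs) and, on few UMIs, at 2000 to 5000 UMIs in melanoma cells for Lgals9 (−0.47) and Sirpa (0.72). Lgals9 in fibroblasts under 2000 UMIs had 0 and 4 UMIs, KO the higher, and its −0.0149 is only a lower bound with the 0 set to 3. The cause of these moves was not tested. Depth ranges, thinning to 1000 UMIs, KO Y cells and equal state weights were added after seeing the data. Pdcd1lg2 thinned or in Xist cells gave no value. No paired analysis was possible because there is 1 library for either host genotype and no test was run.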

Other observations

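The few cells of the S100a8/S100a9 gate, 1 in WT and 15 in KO, held 5 Cd274 UMIs in 2 KO cells, at a median of 772 UMIs per cell. Cells that passed no class held 36 and 37 Cd274 UMIs in WT and KO, 101 and 50 of Cd86, 222 and 240 of Sirpa, 400 and 554 of Cd47 and 3323 and 8405 of Lgals1. They carried 27.3% and 29.8% of the Cd274 UMIs of all kept cells. Their UMIs in all were 2314278 in WT and 4613008 in KO. Relative to these, KO over WT was −0.96 (−1.66 to −0.25) for Cd274, −2.01 for Cd86, −0.88 for Sirpa, −0.53 for Cd47 and 0.34 for Lgals1. Which kinds of cell make up this group in each library was not tested. Barcodes left out for more than 7.5% mitochondrial UMIs, 2125 in WT and 1897 in KO, had KO over WT ratios of 0.53 for Lgals1, 0.53 for Lgals9 and −0.44 for Sirpa.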
